A study of Saccharomyces cerevisiae with 12 samples.

Results

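The transcript of *ROX1* (YPR065W), which encodes a repressor of hypoxic genes, was examined together with *MOT3*, the gene of a repressor that acts beside it, and 8 genes that Rox1 represses or that are known to rise in low oxygen: *ANB1*, *AAC3*, *OLE1*, *TIR1*, *TIR2*, *TIR3*, *TIR4* and *DAN1*. The 10 genes were chosen by name, each is measured by 1 probe set, and they were 10 of the 5449 named genes of the Affymetrix Yeast Genome 2.0 array. RNA came from 4 groups of *Saccharomyces cerevisiae* cultures, with 3 biological replicates and 1 array per replicate: *com2*Δ cells with SO2, *com2*Δ cells without SO2, BY4741 cells with SO2 and BY4741 cells without SO2. SO2 was given at 0.5 mM, all cells were harvested after 60 min in MMB, a minimal glucose medium, at pH 3.5, and oxygen was not varied. BY4741 is a common haploid laboratory yeast, here MATa, and the mutant is a single deletion strain of *COM2*, the gene of a zinc finger transcription factor related to Msn2 and Msn4. All 4 groups carry the *his3*, *leu2*, *met15* and *ura3* deletions of BY4741, and histidine, leucine, methionine and uracil were supplied in the medium.

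With oxygen, yeast makes heme, heme activates the factor Hap1, and Hap1 raises the transcription of *ROX1*. Rox1 then binds the promoters of hypoxic genes and recruits the Tup1 and Cyc8 corepressors, with Mot3 acting beside it at a part of these promoters. When oxygen and heme are lost, *ROX1* is shut off and the hypoxic genes are expressed, among them isoforms of aerobic proteins, enzymes that need oxygen as a substrate, and mannoproteins of the anaerobic cell wall. Rox1 also represses its own gene. This is a general account of yeast, and the activity of Hap1 and Rox1 in the strains used here was not measured.

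Each value is an intensity on a linear scale, normalized between arrays by the authors, and array medians ran from 1673 to 1868. Pearson's r of log2 intensities between replicates was 0.973 to 0.995 across features, which are not independent. *COM2* averaged 19.5 ± 0.66 in *com2*Δ cells with SO2, against 2538 ± 196 in BY4741 cells with SO2, and 10.5 ± 1.32 in *com2*Δ cells without it, against 3366 ± 443 in BY4741 cells without it (SD, n = 3 each). The 3 markers that both strains lack, *LEU2*, *MET17* (the current name of *MET15*) and *URA3*, reached at most 152.5 on any array, and values up to that intensity are here called low. Array 3 of the BY4741 controls lay apart from its replicates, with 9 of the 10 genes above both of them, at a median log2 difference of 0.52, against 40.1% of all 5667 features above both. Over the 10 genes other arrays also deviated from their replicates. On *com2*Δ control array 1, 8 genes lay below both (−0.18), against 34.1% of all features. On BY4741 array 2 with SO2, 8 lay above both (0.43), against 40.8%. On BY4741 control array 1, 8 lay below both (−0.43), against 34.5%. Over all features the median log2 differences of these arrays were 0.016, 0.0046 and 0.0043, and that of BY4741 control array 3 was −0.032.

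*ROX1* was the only one of the 10 genes called in *com2*Δ cells treated with SO2, and it was the gene with the largest change among them. Its intensities were 9629, 8515 and 8430 in *com2*Δ cells with SO2, against 791, 1129 and 1483 in *com2*Δ cells without it. In BY4741 cells it had 1879, 857 and 1777 with SO2, against 586, 775 and 1941 without it. The SO2-treated *com2*Δ cultures thus lay above all 9 other cultures, while the treated and untreated BY4741 cultures overlapped. The log2 fold change was 3.01 (standard error, SE, 0.42) in *com2*Δ cells, an 8.05-fold rise with a limma adjusted p = 0.000467, and it was the 9th highest of 5667 features. In BY4741 cells it was 0.57 (95% interval −0.35 to 1.48, limma adjusted p = 0.264), and the difference of the responses was 2.44 (SE 0.59, limma adjusted p = 0.00663). Under SO2, *ROX1* was 6.23-fold higher in *com2*Δ than in BY4741 cells (limma adjusted p = 0.000244), whereas without SO2 the log2 difference was 0.20 (95% interval −0.72 to 1.11). Without BY4741 control array 3 the log2 fold change in BY4741 cells was 1.07 (limma adjusted p = 0.0171) and passed the threshold, as it did with array weights (1.22). To be called, a difference had to reach 2-fold with p under 0.05 and a false discovery rate below 10%. The RNA is pooled over a culture, so that fewer expressing cells and less RNA per cell cannot be told apart.

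**Figure D1:**
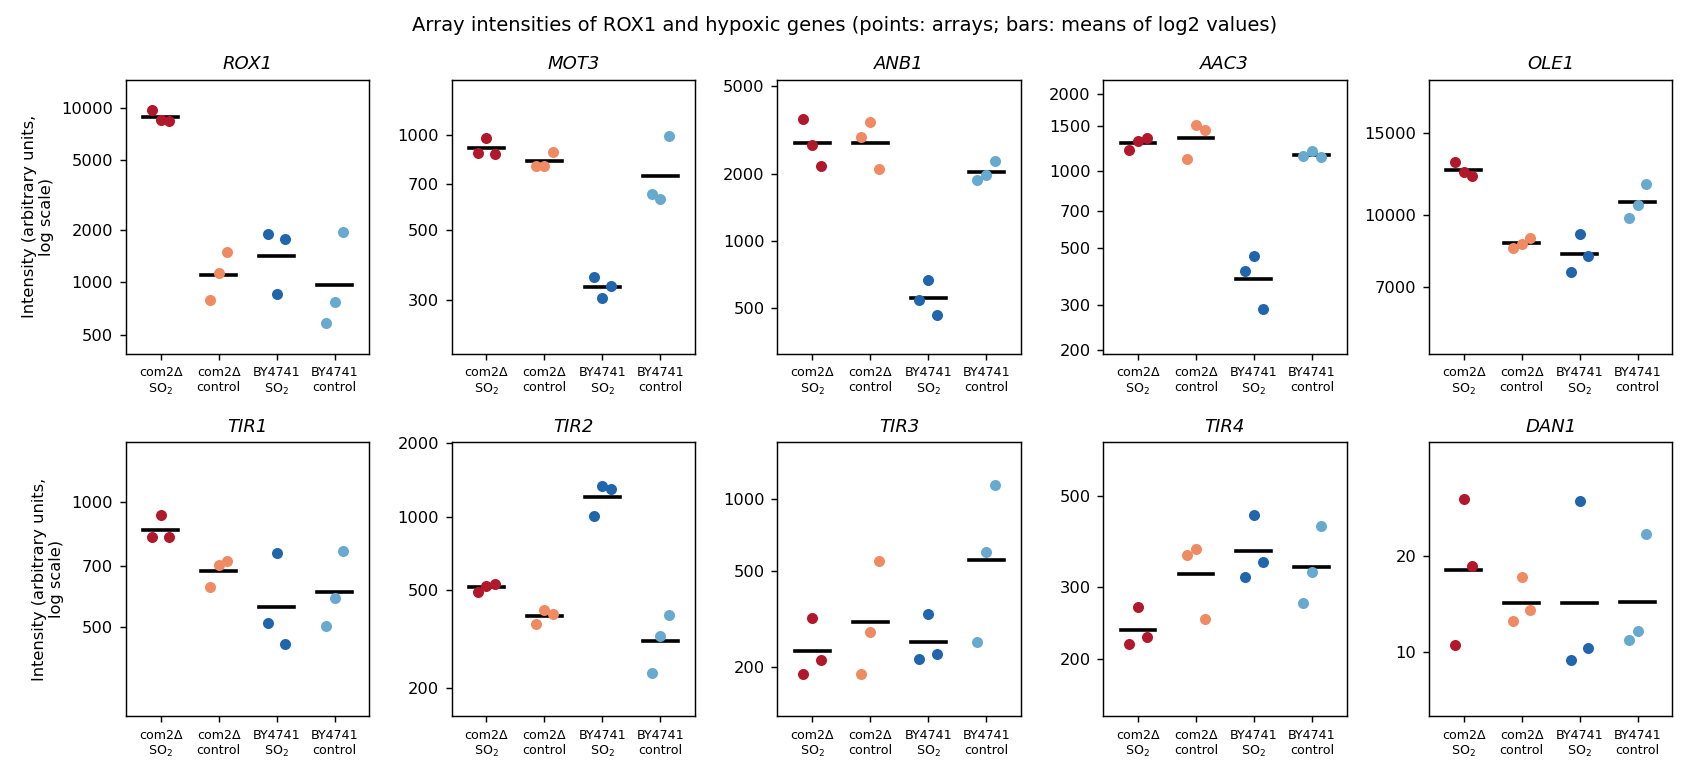
Intensity of each of the 10 genes on the 12 arrays (y axis, arbitrary units, log scale, range set per gene), in *com2*Δ cells with SO2 and without it and BY4741 cells with SO2 and without it. Points are arrays and bars are means of the log2 values (n = 3). *ROX1* is highest in *com2*Δ cells with SO2, whereas *MOT3*, *ANB1* and *AAC3* are lowest, and *TIR2* is highest, in BY4741 cells with SO2.

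*MOT3* (YMR070W), the gene of a zinc finger repressor that acts with Rox1 on part of the hypoxic genes, fell in BY4741 cells and was not called in *com2*Δ cells. In *com2*Δ cells its intensities were 876, 978 and 871 with SO2, against 794, 799 and 885 without it. In BY4741 cells they were 357, 306 and 333 with SO2, against 652, 625 and 994 without it. The SO2-treated BY4741 cultures therefore lay below all other cultures, and those of *com2*Δ cells overlapped with their controls. The fall in BY4741 cells was 2.23-fold (log2 −1.16, SE 0.16, limma adjusted p = 7.47e-05), the log2 fold change in *com2*Δ cells was 0.14 (95% interval −0.21 to 0.48), and the responses differed by 1.30 (SE 0.22, limma adjusted p = 0.000951). The fall in BY4741 cells was under 2-fold without BY4741 control array 3 (−0.95) and with array weights (−0.88), so that the call ended.

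*ANB1* and *AAC3* are the hypoxic members of isoform pairs and are textbook targets of Rox1. *ANB1* (YJR047C) encodes the form of translation factor eIF5A made in low oxygen. Its intensities were 3560, 2725 and 2189 in *com2*Δ cells with SO2, against 2935, 3454 and 2121 without it. In BY4741 cells they were 542, 669 and 467 with SO2, against 1883, 1983 and 2286 without it. Only in BY4741 cells did the treated and untreated cultures separate, with a 3.69-fold fall (log2 −1.88, SE 0.21, limma adjusted p = 2.10e-05). In *com2*Δ cells the log2 fold change was −0.01 (95% interval −0.47 to 0.46), and with array weights −0.61, which was still under 2-fold. The difference of the responses was 1.88 (SE 0.30, limma adjusted p = 0.000644).

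*AAC3* (YBR085W), the gene of the ADP/ATP carrier of the mitochondrial inner membrane that is made in low oxygen, likewise fell in BY4741 cells. It showed 1210, 1310 and 1352 in *com2*Δ cells with SO2, against 1113, 1519 and 1454 without it. In BY4741 cells it showed 406, 466 and 290 with SO2, against 1146, 1201 and 1134 without it. All 3 treated BY4741 cultures lay below every other culture. The fall in BY4741 cells was 3.06-fold (log2 −1.61, SE 0.17, limma adjusted p = 1.09e-05), against −0.07 in *com2*Δ cells (95% interval −0.43 to 0.30), and the responses differed by 1.55 (SE 0.23, limma adjusted p = 0.000478). Under SO2, *ANB1* was higher by a log2 difference of 2.32 and *AAC3* by 1.76 in *com2*Δ than in BY4741 cells (limma adjusted p = 5.68e-06 and 6.94e-06).

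Of the aerobic partners of these isoforms, only *AAC1* was called with SO2 in either strain. *HYP2*, which encodes the aerobic eIF5A and is a near-identical copy of *ANB1*, had log2 responses of 0.13 in *com2*Δ and −0.35 in BY4741 cells (standard errors 0.09), with the sign of the *ANB1* response in BY4741 cells but under 2-fold. How far *HYP2* RNA adds to the *ANB1* signal was not tested, and the level of *ANB1* is uncertain for this reason. *PET9*, the main ADP/ATP carrier gene, had log2 fold changes of 0.22 and −0.28 (standard errors 0.10). *AAC1*, the gene of the minor aerobic carrier, rose with SO2 in BY4741 cells. It had intensities of 1870, 3085 and 2164 in BY4741 cells with SO2, against 1077, 1010 and 891 without it. Its log2 fold change there was 1.23 (SE 0.16, limma adjusted p = 6.53e-05), and with array weights it was 0.97 and no longer called. *AAC1* had 0.37 in *com2*Δ cells, where it was not called, and its response differed between the strains by −0.86 (limma adjusted p = 0.0111), which is under 2-fold, and by −1.02, which was called, without BY4741 array 1 with SO2.

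*OLE1* (YGL055W) encodes the delta-9 fatty acid desaturase, which introduces the double bond of unsaturated fatty acids with molecular oxygen. It was the only gene of the 10 for which the treated and untreated cultures separated in both strains with opposite directions. The intensities were 13006, 12384 and 12142 in *com2*Δ cells with SO2, against 8485, 8653 and 8916 without it. In BY4741 cells they were 7550, 9090 and 8149 with SO2, against 9828, 10495 and 11649 without it. The log2 fold changes were 0.53 in *com2*Δ and −0.37 in BY4741 cells (standard errors 0.10, limma adjusted p = 0.00219 and 0.00622). Neither reached 2-fold, and neither did their difference of 0.89 (SE 0.14, limma adjusted p = 0.000476), so that none of these was called, but all 3 were with a threshold on the adjusted p alone. Of the membrane-bound activators of *OLE1*, named after their values were seen, *MGA2* had 0.60 in *com2*Δ and 0.18 in BY4741 cells on the log2 scale, and *SPT23* had 0.00 and 0.52.

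The *TIR* genes and *DAN1* encode serine and alanine rich mannoproteins, which replace the aerobic mannoproteins of the cell wall in low oxygen. They did not move together. *TIR2* (YOR010C) had intensities of 493, 522 and 533 in *com2*Δ cells with SO2, against 363, 417 and 402 without it. In BY4741 cells they were 1008, 1340 and 1297 with SO2, against 229, 326 and 396 without it. The treated cultures lay above the untreated ones in both strains, but only the rise of BY4741 cells passed the threshold, at 3.90-fold (log2 1.96, SE 0.18, limma adjusted p = 4.24e-06). In *com2*Δ cells the log2 fold change was 0.39 (95% interval 0.00 to 0.78, limma adjusted p = 0.117), and the responses differed by −1.57 (SE 0.25, limma adjusted p = 0.000636). Under SO2, *TIR2* was 2.34-fold lower in *com2*Δ than in BY4741 cells (limma adjusted p = 0.000128). In the reference annotation, *TIR4* and *AUS1* are the genes next to *TIR2* on chromosome XV. *AUS1*, which encodes a sterol importer used without oxygen, had 0.20 in *com2*Δ and 0.74 in BY4741 cells on the log2 scale, under 2-fold in both.

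*TIR3* (YIL011W) had the largest standard error of the 10 genes. It had 187, 319 and 214 in *com2*Δ cells with SO2, against 186, 281 and 551 without it. In BY4741 cells it had 216, 333 and 225 with SO2, against 254, 601 and 1153 without it. The groups overlapped in both strains. The log2 fold change was −0.39 in *com2*Δ cells (SE 0.50) and −1.15 in BY4741 cells (95% interval −2.25 to −0.04, limma adjusted p = 0.0691). The value in BY4741 cells passed the threshold as fitted, but not with 1 of 7 arrays left out (*com2*Δ with SO2 1 or 3, *com2*Δ control 2, BY4741 with SO2 1 or 3, BY4741 control 2 or 3), at adjusted p-values of 0.0795 to 0.262 from limma. Without BY4741 control array 3 it was −0.63. The *TIR3* responses differed by 0.75 (SE 0.71), which was not called, and by 1.32 (limma adjusted p = 0.0938), which was, without BY4741 control array 1.

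*TIR1* (YER011W) had intensities of 824, 930 and 824 in *com2*Δ cells with SO2, against 625, 704 and 719 without it, and of 509, 753 and 455 in BY4741 cells with SO2, against 501, 585 and 762 without it. The treated and untreated *com2*Δ cultures did not overlap, and those of BY4741 cells did, but neither log2 fold change was called (0.33, 95% interval −0.08 to 0.75, and −0.12, 95% interval −0.53 to 0.30). *TIR4* (YOR009W) had 218, 268 and 226 in *com2*Δ cells with SO2, against 358, 371 and 251 without it, and 317, 449 and 344 in BY4741 cells with SO2, against 274, 326 and 422 without it. Its log2 fold changes were −0.45 in *com2*Δ cells (95% interval −0.88 to −0.01) and 0.13 in BY4741 cells (95% interval −0.31 to 0.56). Under SO2, *TIR1* was higher by 0.62 and *TIR4* lower by a log2 difference of −0.63 in *com2*Δ than in BY4741 cells (limma adjusted p = 0.0142 and 0.0160), both under 2-fold. *DAN1* (YJR150C) was in the low range on all 12 arrays, at 9.47 to 30.2, so that its log2 fold changes of 0.34 and −0.01 say nothing about its RNA level.

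**Figure D2:**
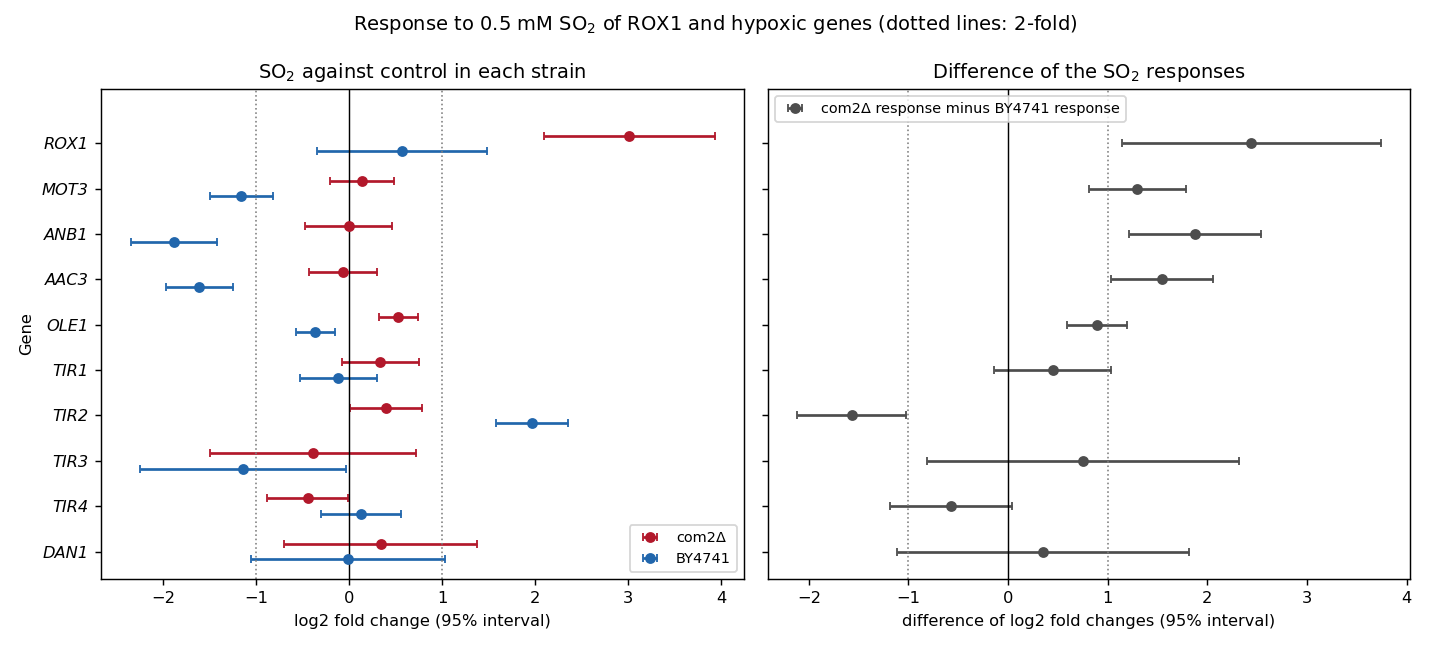
Log2 fold changes of the 10 genes with SO2 in *com2*Δ cells and in BY4741 cells (left panel, x axis in log2 units), and the *com2*Δ response minus the BY4741 response (right panel). Points are estimates from limma, horizontal lines are 95% intervals, and dotted lines mark 2-fold. *ROX1* is displaced from 0 by over 2-fold in *com2*Δ cells, and *MOT3*, *ANB1*, *AAC3*, *TIR2* and *TIR3* in BY4741 cells.

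Counted over the 10 genes, SO2 raised 1 and lowered 0 in *com2*Δ cells, where 5.88% of the 5667 features were called by limma, 3.14% higher and 2.74% lower. At an unadjusted p under 0.05, 3 members were higher and 1 was lower, where 41.9% of all features passed in either direction. In BY4741 cells SO2 raised 1 member, *TIR2*, and lowered 4, *ANB1*, *AAC3*, *MOT3* and *TIR3*, where 18.8% of all features were called, 10.5% higher and 8.36% lower. The calls of *MOT3* and *TIR3* ended under some of the alternatives. The difference of the responses was called for 5 of the 10 genes, with 4 upward (*ROX1*, *ANB1*, *AAC3* and *MOT3*) and 1 downward (*TIR2*), against 17.5% of all features, 8.17% upward and 9.3% downward. Without the fold limit, at a false discovery rate under 10%, it passed for 6 of the 10 genes, against 53.8% of all features. The median log2 fold change of the 10 genes was 0.23 in *com2*Δ and −0.24 in BY4741 cells, and the median difference of the responses was 0.82, where the medians of all features were 0.01, 0.00 and 0.01. The groups did not overlap for 4 members with SO2 in *com2*Δ cells (*ROX1*, *TIR1*, *TIR2* and *OLE1*, all higher), where 24.1% of all features lay entirely higher and 23.1% entirely lower. In BY4741 cells they did not overlap for *TIR2*, which was higher, and *ANB1*, *AAC3*, *OLE1* and *MOT3*, which were lower, where these shares were 31.7% and 31.1%. The genes were chosen with earlier results of these arrays known, and no test was made over the list.

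With SO2 present, 5 of the 10 genes were called between the strains, *ROX1*, *ANB1*, *AAC3* and *MOT3* higher and *TIR2* lower in *com2*Δ than in BY4741 cells, where 17.7% of all features were called, 7.62% higher and 10% lower. *MOT3* was 2.74-fold higher (limma adjusted p = 1.70e-05). The strains did not overlap for 8 of the 10 genes, *ROX1*, *ANB1*, *AAC3*, *TIR1*, *OLE1* and *MOT3* higher and *TIR2* and *TIR4* lower, where 32% of all features lay entirely higher and 34.8% entirely lower. This comparison and that of the responses share the arrays with SO2. Without SO2, 0 of the 10 genes were called by limma, against 0.706% of all features (0.353% higher and 0.353% lower), and 1 of them had an unadjusted p under 0.05, compared with 13.6% of all features. That gene was *OLE1*, with 8485, 8653 and 8916 in *com2*Δ control cells, against 9828, 10495 and 11649 in BY4741 control cells, which did not overlap (log2 difference of −0.29, 95% interval −0.50 to −0.08, limma adjusted p = 0.195). The 3 control cultures of a strain overlapped with those of the other strain for the other 9 genes, and over all features 7.39% lay entirely higher and 10.1% entirely lower in *com2*Δ cells.

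Of 9 further hypoxic genes, which are targets of Rox1 or known to rise without oxygen, 1 was called in *com2*Δ cells and 2 in BY4741 cells with SO2. The shares of all features called were 5.88% in *com2*Δ and 18.8% in BY4741 cells. *CYC7*, the gene of the hypoxic form of cytochrome c, had intensities of 509, 136 and 442 in *com2*Δ cells with SO2, against 242, 691 and 1102 without it. In BY4741 cells it had 21.4, 24.2 and 19.2 with SO2, against 679, 1608 and 814 without it. All 3 treated BY4741 cultures and 1 treated *com2*Δ culture were in the low range. The log2 fold change in BY4741 cells was −5.48 as fitted (SE 0.58, limma adjusted p = 1.31e-05) and −2.66 with low values raised to 152.5. In *com2*Δ cells it was −0.86 (limma adjusted p = 0.292), and without *com2*Δ control array 1 it was −1.48 and called (limma adjusted p = 0.0713). The difference of the responses was 4.62 as fitted (limma adjusted p = 0.00121) and 1.85 with low values raised, where it was no longer called (limma adjusted p = 0.121).

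*HEM13*, the gene of the coproporphyrinogen oxidase of heme synthesis, a step that uses oxygen, is repressed by Rox1 in the presence of heme. It had 1356, 1681 and 1328 in *com2*Δ cells with SO2, against 1895, 2416 and 2259 without it, and 611, 709 and 691 in BY4741 cells with SO2, against 1317, 1845 and 3329 without it. The groups did not overlap in either strain. The fall was called in BY4741 cells (log2 −1.59, SE 0.26, limma adjusted p = 0.000322) and not in *com2*Δ cells (−0.59, limma adjusted p = 0.111). The responses differed by 0.99 (limma adjusted p = 0.0475), just under the 2-fold limit, and the difference was called without any 1 of 8 arrays (1.02 to 1.30), with quantile normalization (1.003) and with median centring (1.07). Among these genes *FET4*, which encodes a low affinity iron transporter repressed by Rox1 with oxygen, rose in *com2*Δ cells, as *ROX1* did. It had 7273, 3997 and 5975 in *com2*Δ cells with SO2, against 2023, 2033 and 1595 without it, and 2643, 3000 and 2849 in BY4741 cells with SO2, against 2244, 2337 and 1758 without it. The rise in *com2*Δ cells was 2.98-fold (log2 1.58, SE 0.20, limma adjusted p = 0.000276), against a log2 fold change of 0.43 in BY4741 cells. The responses differed by 1.14 (limma adjusted p = 0.00710), and by 0.95, under 2-fold, without *com2*Δ array 1 with SO2.

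**Figure D3:**
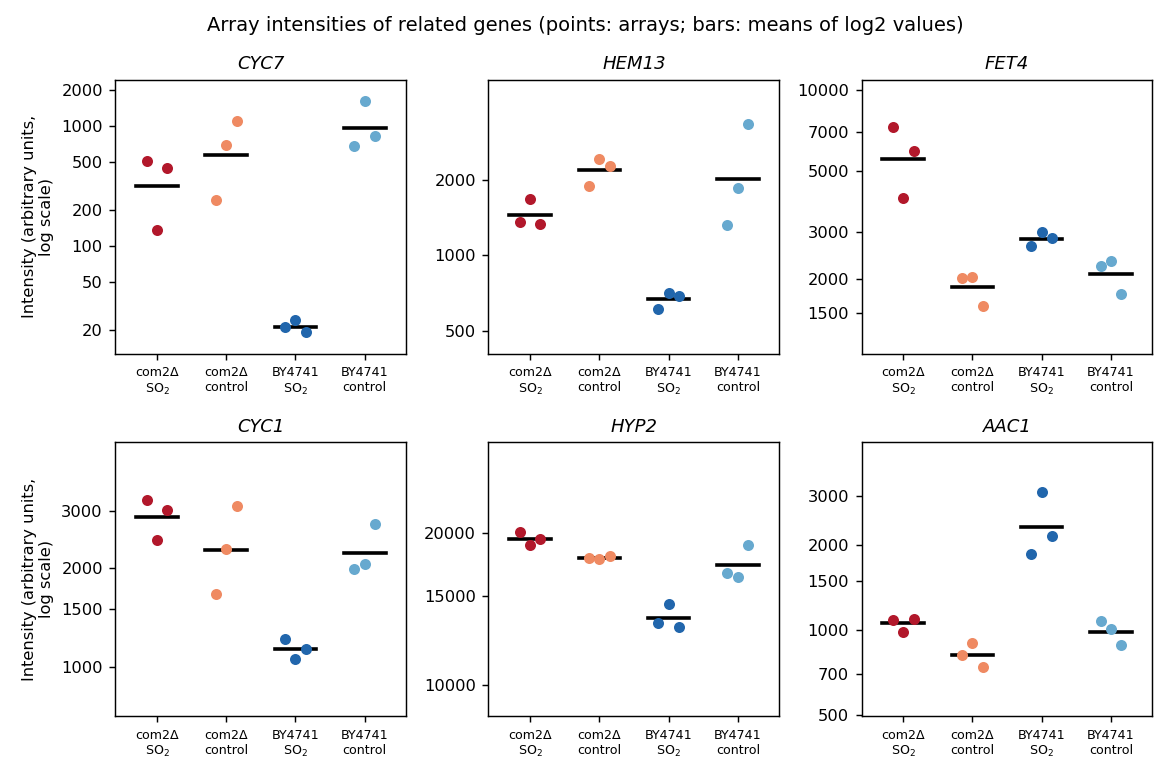
Intensity of 6 related genes on the 12 arrays (y axis, arbitrary units, log scale, range set per gene), in *com2*Δ cells with SO2 and without it and BY4741 cells with SO2 and without it. Points are arrays and bars are means of the log2 values (n = 3). *CYC7*, *HEM13*, *CYC1* and *HYP2* are lowest in BY4741 cells with SO2, where *AAC1* is highest, whereas *FET4* is highest in *com2*Δ cells with SO2.

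Of the 6 genes of aerobic counterparts, *AAC1* rose and *HMG1*, which encodes an HMG-CoA reductase of sterol synthesis, fell with SO2 in BY4741 cells. The log2 fold change of *HMG1* there was −1.08 (SE 0.15, limma adjusted p = 7.74e-05). In *com2*Δ cells 0 of the 6 were called by limma, and *HMG1* had −0.86. Over all features, 10.5% were called higher and 8.36% lower in BY4741 cells, and 5.88% either way in *com2*Δ cells. *CYC1*, the gene of the main form of cytochrome c, lies next to *ANB1* on chromosome X and is transcribed away from it. It had 3248, 2439 and 3014 in *com2*Δ cells with SO2, against 1672, 2289 and 3115 without it, and 1217, 1056 and 1132 in BY4741 cells with SO2, against 1988, 2056 and 2735 without it. Its response differed between the strains by 1.31 (SE 0.29, limma adjusted p = 0.00423), at 0.33 in *com2*Δ cells and −0.98 in BY4741 cells, where it was just under 2-fold. The value in BY4741 cells passed the threshold with median centring (−1.08) or quantile normalization (−1.04), and without BY4741 array 1 with SO2 (−1.03), BY4741 control array 1 (−1.07) or BY4741 control array 2 (−1.04).

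Of 9 regulators of the oxygen, heme and sterol response, 0 were called by limma with SO2 in either strain. Over all features the shares called were 5.88% in *com2*Δ and 18.8% in BY4741 cells. The log2 fold changes of the 9 regulators ran from −0.47 to 0.60 in *com2*Δ and from −0.42 to 0.94 in BY4741 cells. *HAP1*, the heme-dependent activator of *ROX1*, chosen after seeing its values, had 2715, 3005 and 3167 in *com2*Δ cells with SO2, against 3195, 3467 and 2691 without it. In BY4741 cells it had 5617, 4692 and 5184 with SO2, against 3529, 4230 and 3972 without it. These are log2 fold changes of −0.07 and 0.40, and their difference of −0.47 was under 2-fold (limma adjusted p = 0.0426). They are RNA values, and whether Hap1 was active in these cells was not tested. *IXR1*, which encodes an HMG-box protein that acts on hypoxic genes such as *COX5B*, had −0.10 in *com2*Δ and 0.94 in BY4741 cells, and the difference of −1.04 was called (limma adjusted p = 0.0294) but was under 2-fold without any 1 of 5 arrays (*com2*Δ control 2, BY4741 with SO2 1 or 3, BY4741 control 1 or 2, at −0.83 to −0.99) and with median centring (−0.97). The *IXR1* rise in BY4741 cells was in turn called without BY4741 array 2 with SO2 (1.198), without BY4741 control array 3 (1.21) and with array weights (1.27). The corepressor genes *TUP1* (0.10 and 0.30) and *CYC8* (−0.47 and 0.02), also named after their values were seen, were under 2-fold in both strains.

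Of 11 enzymes and electron donors that act with molecular oxygen in sterol, sphingolipid and heme synthesis, 2 fell with SO2 in BY4741 cells. These were *HEM13* and the sterol desaturase gene *ERG3*, and 0 of the 11 were called in *com2*Δ cells by limma. Over all features, 8.36% were called lower in BY4741 cells and 5.88% either way in *com2*Δ cells. The *ERG3* response was −0.93 in *com2*Δ and −1.07 in BY4741 cells on the log2 scale (standard errors 0.17), which differed by 0.14 (95% interval −0.38 to 0.66). The fall in BY4741 cells was under 2-fold without BY4741 array 3 with SO2 (−0.92), and the *ERG3* fall in *com2*Δ cells was called without *com2*Δ array 2 with SO2 (−1.09) or *com2*Δ control array 3 (−1.01). Of the *DAN* and *PAU* families, near-identical cell wall genes whose probe sets can share RNA, 15 of 26 were measured. Among all features 10.5% were called higher in BY4741 cells and 3.14% in *com2*Δ cells. SO2 raised 2 of the 15 genes in BY4741 cells and 0 in *com2*Δ cells by limma. These were *PAU17*, at 1.20 on the log2 scale (SE 0.17, limma adjusted p = 0.000103) by its brighter probe set but at −0.70 by the dimmer one, and at 0.98, no longer called, with array weights, and *PAU21*, in the low range on all 12 arrays. Without the fold limit, at a false discovery rate under 10%, 6 of the 15 were higher and 5 lower in BY4741 cells, where 66.2% of all features passed. *PAU8* (−0.998) and *PAU14* (−0.92), chosen after seeing their values, were the lowest of them, both just under 2-fold. *DAN4*, the neighbour of *DAN1*, had −0.04 in *com2*Δ and −0.03 in BY4741 cells.

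The 5 genes whose log2 intensities followed those of *ROX1* most closely over the 12 arrays were *PHD1*, *RHO5*, *MDM10*, *TOA1* and YLR326W, with Pearson's r of 0.964 to 0.984 among 5135 named genes above the low range. The arrays share the group structure, so that r is given as a description. *PHD1*, the gene of a transcription factor of pseudohyphal growth, had 4578, 4240 and 4474 in *com2*Δ cells with SO2, against 757, 919 and 902 without it, and 993, 659 and 949 in BY4741 cells with SO2, against 549, 632 and 1515 without it. As for *ROX1*, BY4741 control array 3 held the highest of the control values and BY4741 array 2 with SO2 the lowest of the treated ones. *RHO5*, which encodes a small GTPase, averaged 7866 ± 775 and 2454 ± 596 in *com2*Δ cells with and without SO2, and 2408 ± 382 and 2020 ± 623 in the corresponding BY4741 cells (SD, n = 3 each). Of the other members, *OLE1* was the one most like *ROX1*, with r of 0.67, and *TIR4* the least, with −0.63. *ANB1* and *AAC3* had r of 0.25 and 0.18.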

How the data were processed

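The values deposited are linear intensities, 1 for each probe set on each array, none below 1. Per the paper, arrays were normalized to an invariant set and dChip computed expression indices from the perfect match probes, MAS 5.0 having given detection calls, and the submitters' processing notes name MAS5. Of 5716 probe sets, 5498 name 1 gene, 0 several and 218 none, and 12 symbols were updated through gene identifiers. For 47 genes with several probe sets the brightest by mean log2 intensity was kept, which gave 5667 features. Log2 intensities of all 12 arrays, with no further scaling, were fitted with limma 3.58.1 in R 4.3.3, with 1 mean per group, moderated variances and Benjamini-Hochberg adjustment over all features. Calls needed 2-fold, p under 0.05 and a false discovery rate under 10%. P-values set differences against the spread between cultures, and the number of arrays limits the precision. On simulated data for SO2 in *com2*Δ cells, with 5667 genes, the fit called 96 of 100 genes changed by 1.5 and 100 of 100 changed by 3 (log2). These rates hold for the simulated spread and not for each member, whose standard errors ran from 0.10 (*OLE1*) to 0.50 (*TIR3*). Tables and plots were made with Python 3.11.15, pandas 2.3.3 and matplotlib 3.10.9.

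The members and lists were chosen with earlier results of these data known. Named genes are the members, genes of the lists that were called or paired with a member, the 5 genes most like *ROX1*, and the deleted genes. *HAP1*, *TUP1*, *CYC8*, *MGA2*, *SPT23*, *AUS1*, *DAN4*, *PAU8* and *PAU14* lie outside this rule and were added with their values known. Neighbouring genes were read from the RefSeq annotation of assembly R64. The labelling kit and the array number given in the paper are not those of the labels. The planned search of promoters for Rox1 sites was not made, since no promoter sequence was used here. Alternatives were the replicate block, each array left out, median centring, quantile normalization, an offset of 16, the 25% dimmest features left out, only the 6 arrays compared, trend and robust variances, array weights, another threshold and the dimmer probe set. Low values raised to 152.5 were added after seeing the data.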

Additional observations from a re-analysis of the deposited data

Results flagged for a closer look

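Of the genes named here, 26 passed the test of the difference of the responses at a false discovery rate under 10% from limma. Many of them were named for their calls or values in these same data, so that this count is a description. The limit was passed by 53.8% of all 5667 features and by 25 of the 48 genes of the related lists. Of the 10 genes examined, 6 were among the 26. *ROX1* had a *com2*Δ response higher than that of BY4741 cells by 2.44 on the log2 scale, *ANB1* by 1.88, *AAC3* by 1.55, *MOT3* by 1.30 and *OLE1* by 0.89. *TIR2* had a difference of −1.57. Of the related genes, *CYC7* had a difference of 4.62, *CYC1* of 1.31, *FET4* of 1.14, *HEM13* of 0.99, *PAU8* of 0.63, *PET9* of 0.49, *HYP2* of 0.47 and *MGA2* of 0.42. In the other direction, *PAU21* had −1.08, *IXR1* −1.04, *AAC1* −0.86, *PAU17* −0.70, *AUS1* −0.54, *SPT23* −0.52 and *HAP1* −0.47, with *PAU21* in the low range on all 12 arrays. The genes picked for their likeness to *ROX1* had 2.29 (*PHD1*), 1.42 (*RHO5*), 0.99 (YLR326W), 0.64 (*TOA1*) and 0.56 (*MDM10*). They were picked by their values on these same arrays, so that their differences are no separate test.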

How the results depend on the processing

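The rise of *ROX1* in *com2*Δ cells, the falls of *ANB1* and *AAC3* and the rise of *TIR2* in BY4741 cells, and the called differences of *ROX1*, *ANB1*, *AAC3*, *MOT3* and *TIR2* between the responses kept their direction and their call under every alternative that retained the gene. With each array left out in turn, members called in BY4741 cells were 1 to 2 higher and 2 to 4 lower, with 2 higher and 2 lower without BY4741 control array 3. Of the 48 genes of the related lists, those called as fitted were 3 higher and 4 lower in BY4741 cells, and 1 higher and 0 lower in *com2*Δ cells. The difference of the responses gave 3 upward and 2 downward, and under SO2 3 were higher and 2 lower in *com2*Δ than in BY4741 cells. Among all features as fitted, 10.5% were higher and 8.36% lower in BY4741 cells, and 3.14% and 2.74% in *com2*Δ cells. The shares were 8.17% upward and 9.3% downward for the difference, and 7.62% higher and 10% lower under SO2. With each array left out, related genes called were 3 to 5 higher and 4 to 6 lower in BY4741 cells. They were 1 to 2 higher and 0 to 1 lower in *com2*Δ cells, and 3 to 4 upward and 0 to 2 downward for the difference. Under SO2 they were 3 to 4 higher and 1 to 3 lower. The 25% dimmest features included 6 members and left 0 higher and 2 lower in BY4741 cells, 0 downward for the difference of the responses and 0 lower under SO2, and of related genes 1 downward and 1 lower in the same comparisons. With a threshold on the adjusted p alone, 2 members were higher in *com2*Δ cells and 2 lower under SO2 in *com2*Δ than in BY4741 cells. Related genes called were then 3 higher and 13 lower in *com2*Δ cells, 13 higher and 15 lower in BY4741 cells, 9 upward and 10 downward for the difference, and 12 higher and 18 lower under SO2. Of all 5667 features, this threshold called 791 higher and 846 lower in *com2*Δ cells, and 1698 and 1675 in BY4741 cells. For the difference it called 1236 upward and 1311 downward, and under SO2 1696 higher and 1834 lower. With array weights, whose fit stopped before it converged, 2 members were higher in BY4741 cells, and related genes called were 2 higher in *com2*Δ cells, 1 downward for the difference, 0 lower under SO2 and 1 lower without it. Median centring gave 7 related genes lower in BY4741 cells and 1 downward for the difference, 16 added to each intensity 1 downward and 1 lower under SO2, and low values raised to 152.5 the same 2 counts. With low values raised, *TIR3* and *PAU21* were also no longer called in BY4741 cells. *CYC7* was then called neither for the difference of the responses nor between the strains under SO2 (1.09, limma adjusted p = 0.163). The dimmer probe set turned *PAU17* in BY4741 cells to −0.70. The cause was not tested.

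The labels number the replicates 1 to 3 in each group. Of 18 pairs of arrays with the same number, 7 had deviations from the group means with r over 0.1 (−0.31 to 0.47). Of 36 pairs with different numbers, 11 did (−0.54 to 0.44). With 3 arrays per group these values cannot decide whether arrays of the same number share more than the number. With the replicate number as a block, members called were 1 higher and 0 lower in *com2*Δ cells, 1 and 4 in BY4741 cells, 4 and 1 for the difference, 4 and 1 under SO2 and 0 without it, as without the block.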
